A study of Mus musculus with 2 samples.

Results

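The tumour suppressor p53 (gene Trp53), its inhibitors Mdm2 and Mdm4, and 7 genes that p53 is known to activate (Cdkn1a, Phlda3, Ccng1, Zmat3, Sesn2, Aen and Ei24) were measured in mouse morulae. The genes were chosen by name as markers of the p53 response to nucleolar stress, and all 10 were found among the 12836 genes of the deposited table. The study injected ICR embryos with double-stranded RNA and sequenced polyadenylated RNA from pooled morulae, the compacted stage before the blastocyst. The dsNat10 library came from embryos given double-stranded RNA against Nat10, the enzyme that writes N4-acetylcytidine on RNA, and the dsGFP library from embryos given double-stranded RNA against GFP, a sequence absent from the mouse genome. The series title ties the modification to the mRNA of Nop2, a nucleolar RNA methyltransferase, and to the passage from morula to blastocyst. The design text names 50 injected morulae and leaves unclear whether each library was made from that number. Each group had 1 library, so nothing below was checked in replicates and no p-value was computed.

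In unstressed cells Mdm2 marks the p53 protein for destruction by ubiquitin, and Mdm4, its close relative, covers the part of p53 that activates transcription. When ribosome assembly stalls in the nucleolus, the ribosomal proteins Rpl5 and Rpl11 bind Mdm2 together with 5S ribosomal RNA and release p53 from it. p53 then activates genes for cell cycle arrest, repair and death, and Mdm2 itself, which closes a feedback loop. Because much of this control acts on proteins, RNA levels show the output of the pathway and the supply of its mRNAs, and not the amount of p53 protein.

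The libraries held 28303119 reads (dsNat10) and 29139232 reads (dsGFP). Nat10 had 37 reads in dsNat10 and 886 in dsGFP, 23.7-fold lower (95% counting interval 17.1 to 33.9). Of 11 marker genes of the morula, 10 were in the table and each had reads in both libraries, with summed levels of 18110 TPM in dsNat10 and 17262 TPM in dsGFP. TPM is a level per length, scaled to the same sum in each library. Dppa5a, with fractional counts, supplied 15850 TPM of this sum in dsNat10 and 14236 TPM in dsGFP, and the other 9 summed to 2260 TPM in dsNat10 and 3026 TPM in dsGFP. By the 2-fold size rule defined below, 4 of these 10 were lower in dsNat10 (Nanog, with fractional counts, Cdx2, Tead4 and Krt8) and 0 higher, beside 15.3% lower and 15.2% higher over all genes that passed the filter and 4.62% and 4.71% over those of 50 CPM or more, where 9 of the 10 markers lie. Of 8 oocyte markers, 3 were in the table, and they summed to 44.9 TPM in dsNat10 and 6.52 TPM in dsGFP. Zp3 and H1f8 were higher in dsNat10, and H1f8 was at 0 in dsGFP, while Gdf9, under the filter and named after its value was seen, had 1 read in dsNat10 and 54 in dsGFP. Of 7 cumulus cell markers only Amhr2 was in the table (23.9 TPM in dsNat10 and 26.9 TPM in dsGFP), and 4 of 9 blood or fibroblast markers summed to 75.2 TPM in dsNat10 and 82.6 TPM in dsGFP, with Cd68 the most abundant (32.7 TPM in dsNat10 and 40.7 TPM in dsGFP) and Col1a1, named after its value was seen, at 0 in dsNat10. The part of these cells in the results below was not tested. In pooled embryos, fewer cells that express a gene and less RNA per cell cannot be told apart.

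The 300 bases around annotated transcription starts (250 before and 50 after, from RefSeq on GRCm38.p6) were searched for the p53 half-site, the 10-base unit of which a p53 response element holds a pair. The consensus is its own reverse complement, so 1 search reads both strands. Windows were found for 9 of the 10 genes, all but Zmat3, and 6 of these 9 held a match: Trp53, Mdm2, Cdkn1a, Ccng1, Aen and Ei24. Among windows of all genes, 8.36% held at least 1 match (2745 of 32851), and of the 12 windows of the 9 genes, 7 did. Both windows of Aen hold the same site, which is counted in each. The genes were chosen as known parts of the p53 pathway, so nothing is concluded from these shares. The matched stretches are shown because p53 is known to bind such letters, and a match does not show that it binds here. Each is written 5′ to 3′ on the strand of its gene, with 10 bases on each side and the half-site in capitals.
Trp53, chr11:69580274-69580303, plus strand: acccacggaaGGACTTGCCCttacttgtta
Mdm2, chr10:117710925-117710954, minus strand: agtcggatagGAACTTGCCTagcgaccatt
Cdkn1a, chr17:29090896-29090947, plus strand: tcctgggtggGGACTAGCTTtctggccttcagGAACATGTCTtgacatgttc
Ccng1, chr11:40755452-40755481, minus strand: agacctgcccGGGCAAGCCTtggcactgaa
Aen, chr7:78895927-78895956, plus strand: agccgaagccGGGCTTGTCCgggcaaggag
Ei24, chr9:36797325-36797354, minus strand: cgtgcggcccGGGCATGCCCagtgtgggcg

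Cdkn1a was the only one of the 9 genes with a pair of exact half-sites, 12 bases apart, which 0.0731% of all windows had at a spacing of up to 13 bases. The pair lies before the upstream of its 2 annotated starts, which are 2790 bases apart. In Cdkn1a and in Ccng1 the 10 bases that directly adjoin an exact half-site differ from the consensus at 1 position, an arrangement found in 0.0883% of all windows (29 of 32851) and searched for after the sequences had been seen. In Aen, Trp53, Ei24 and Mdm2 the adjoining bases differ at 3 to 5 positions. The windows of Phlda3, Mdm4 and Sesn2 held no complete match. That of Phlda3, the gene with the highest ratio of the 10, is shown whole, with the 50 bases after the start in capitals. Its last bases, GAACATGT, fit the start of the consensus, and the bases after them were not searched.
Phlda3, chr1:135765835-135766134, plus strand: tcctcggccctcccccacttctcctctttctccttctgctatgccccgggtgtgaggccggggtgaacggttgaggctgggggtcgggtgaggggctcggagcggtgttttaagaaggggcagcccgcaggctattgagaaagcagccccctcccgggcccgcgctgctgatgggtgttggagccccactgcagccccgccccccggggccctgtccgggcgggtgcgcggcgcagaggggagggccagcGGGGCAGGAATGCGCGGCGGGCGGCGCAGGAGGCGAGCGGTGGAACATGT

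In short, 2 of the 10 genes differed by more than the 2-fold limit, and both were higher in dsNat10: the inhibitor Mdm4 and the target Phlda3. The other 8 genes were within it, with Cdkn1a, Ccng1, Aen and Ei24 above equality and Trp53, Mdm2, Sesn2 and Zmat3 below. A gene was called higher or lower when its mean was at least 5 CPM (reads per 1000000 reads), its log2 ratio of CPM plus 1 was 1 or more in size, and the exact 95% counting interval of the read ratio excluded equality. All 10 genes exceeded 5 CPM in each library. Across the 8738 genes that passed the filter, 15.2% were called higher and 15.3% lower, so 2 of 10 called higher is near that background, and 0 of 10 were called lower. The share called fell with abundance. With a mean of 5 to 20 CPM, where Zmat3 lies, 26.9% of genes were higher and 27.8% lower. At 20 to 50 CPM, where Mdm4, Phlda3 and Sesn2 lie, 16.2% were higher and 15.4% lower, and 2 of the 3 genes were called. At 50 CPM or more, where the remaining 6 lie, 4.71% were higher and 4.62% lower, and 0 of 6 were called.

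**Figure D1:**
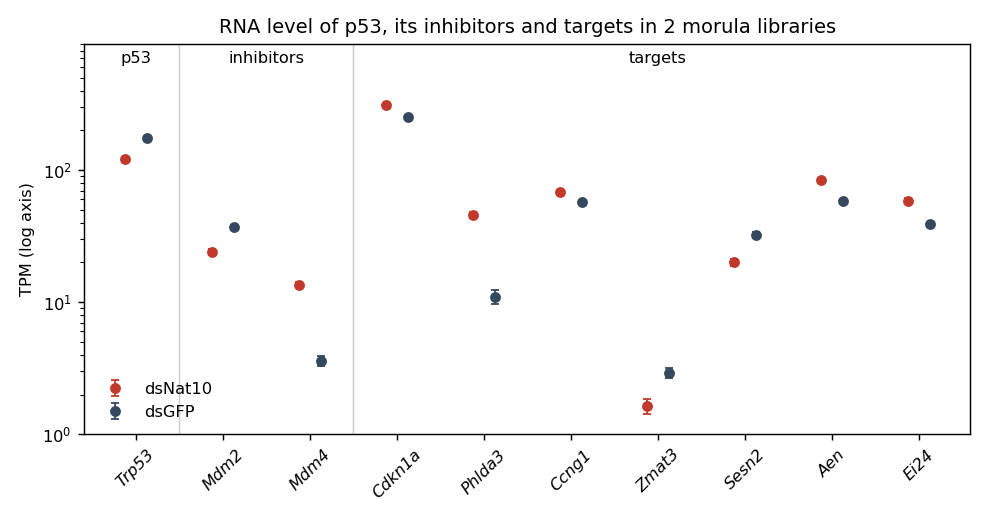
Level of each gene in TPM (log axis) in the dsNat10 library (red) and the dsGFP library (blue), 1 library each; bars are 95% counting intervals of the reads. Mdm4 and Phlda3 stand far above their dsGFP level, while Trp53, Mdm2, Sesn2 and Zmat3 lie below theirs.

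Trp53 (Entrez gene 22059, GRCm38 chromosome 11, 69580348 to 69591873) encodes p53 itself and was an abundant mRNA in both libraries. It had 3802 reads (122 TPM) in dsNat10 and 5742 reads (175 TPM) in dsGFP. The level was 1.49-fold lower in dsNat10 (1.43 to 1.56), a log2 ratio of -0.58, short of the 2-fold limit. Its level exceeded that of 88.3% of all genes in dsNat10 and 91.4% in dsGFP. The annotation names a pseudogene, Trp53-ps, to which reads could be misassigned, although the reads of Trp53 were whole numbers. The p53 paralogs Trp63 and Trp73 were not in the table and were not analysed here.

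Mdm2 and Mdm4, the pair that restrains p53, differed in opposite directions. Mdm2 (Entrez gene 17246, chromosome 10, 117688875 to 117710758), the ubiquitin ligase, had 1343 reads (24.1 TPM) in dsNat10 and 2212 reads (36.8 TPM) in dsGFP. That is 1.63-fold lower (1.52 to 1.75), with a log2 ratio of -0.69. The reads of Mdm2 were fractional before rounding, so part of them may be shared with another gene, and its value is uncertain. Mdm4 (Entrez gene 17248, chromosome 1, 132986105 to 133030587), which binds p53 and pairs with Mdm2, had 1849 reads (13.6 TPM) in dsNat10 and 514 reads (3.58 TPM) in dsGFP. It was 3.63-fold higher (3.29 to 4.02), with a log2 ratio of 1.80. Its reads were whole numbers, and a pseudogene, Mdm4-ps, is annotated.

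The balance of the inhibitors differed between the libraries. Per 100 TPM of Mdm2 there were 56.3 TPM of Mdm4 in dsNat10 and 9.72 TPM in dsGFP, a ratio 5.80 times as high. A ratio of genes within a library does not depend on how the libraries are scaled against each other. Relative to p53 mRNA, Mdm2 was nearly level, at 19.8 TPM per 100 TPM of Trp53 in dsNat10 and 21.01 TPM in dsGFP. Mdm4 stood at 11.1 TPM per 100 TPM of Trp53 in dsNat10 and 2.04 TPM in dsGFP. The inhibitors together summed to 37.7 TPM in dsNat10 and 40.4 TPM in dsGFP, which is 30.9 TPM and 23.0 TPM per 100 TPM of Trp53 in those libraries.

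**Figure D2:**
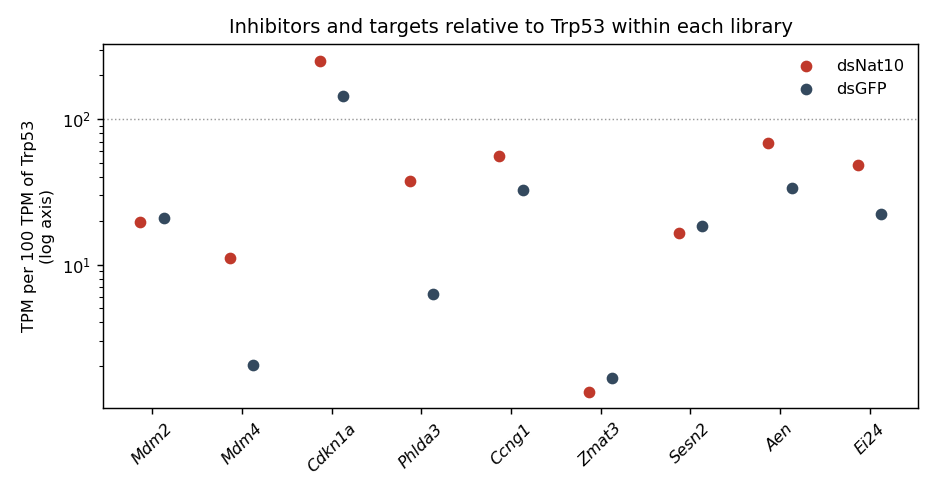
Level of each inhibitor and target per 100 TPM of Trp53 within the same library (log axis), in dsNat10 (red) and dsGFP (blue), 1 library each. Mdm4 (11.1 in dsNat10 and 2.04 in dsGFP) and Phlda3 (37.5 in dsNat10 and 6.27 in dsGFP) are farthest apart, and Mdm2, Sesn2 and Zmat3 lie slightly lower in dsNat10.

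Among the 7 targets, Phlda3 had the largest ratio. Phlda3 (Entrez gene 27280, chromosome 1, 135766085 to 135769134), a membrane-binding protein that restrains the kinase Akt, had 1135 reads (45.7 TPM) in dsNat10 and 287 reads (11.0 TPM) in dsGFP. It was 3.995-fold higher (3.51 to 4.56), with a log2 ratio of 1.90. Phlda3 ranked 2933 of all genes by TPM in dsNat10 and 5657 in dsGFP. Among genes of 20 to 50 CPM the middle 90% of log2 ratios ran from -1.86 to 1.72, and Phlda3 and Mdm4 both lay above that range.

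Cdkn1a (Entrez gene 12575, chromosome 17, 29090979 to 29100722) encodes p21, the inhibitor of cyclin-dependent kinases through which p53 stops the cell cycle, and carries the pair of half-sites shown above. It was the most abundant of the 10 genes in both libraries, with 10355 reads (308 TPM) in dsNat10 and 8907 reads (253 TPM) in dsGFP. That is 1.17-fold higher (1.14 to 1.21), a log2 ratio of 0.23. It supplied 52.6% of the summed TPM of the 7 targets in dsNat10 and 55.8% in dsGFP. An exon of Cdkn1a overlaps a gene annotated on the other strand, and the kit does not mark strand.

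Ccng1, Aen and Ei24 had ratios above equality and short of 2-fold. Each has a half-site match within the searched windows, as do Cdkn1a, with a ratio above equality, and Trp53 and Mdm2, with ratios below it. Phlda3 and Mdm4, the genes called higher, and Sesn2, with a ratio below equality, have no complete match there. Bases outside the windows were not searched. Ccng1 (Entrez gene 12450, chromosome 11, 40748552 to 40755309) encodes cyclin G1, which recruits a phosphatase to Mdm2, and had 4331 reads (67.8 TPM) in dsNat10 and 3822 reads (56.8 TPM) in dsGFP, 1.14-fold higher (1.10 to 1.20). Aen (Entrez gene 68048, chromosome 7, 78895927 to 78911209), a nuclease that enhances apoptosis, had 7722 reads (84.2 TPM) in dsNat10 and 5633 reads (58.6 TPM) in dsGFP, 1.38-fold higher (1.34 to 1.43). Ei24 (Entrez gene 13663, chromosome 9, 36779153 to 36797334) encodes a membrane protein of the endoplasmic reticulum. It had 2267 reads (58.8 TPM) in dsNat10 and 1568 reads (38.7 TPM) in dsGFP, 1.46-fold higher (1.37 to 1.56), and one of its exons overlaps an antisense gene.

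Sesn2 and Zmat3 had ratios below equality. Sesn2 (Entrez gene 230784, chromosome 4, 132492804 to 132510456) encodes a leucine sensor that restrains the mTOR complex, and had 960 reads (20.1 TPM) in dsNat10 and 1626 reads (32.3 TPM) in dsGFP, 1.68-fold lower (1.55 to 1.82). Zmat3 (Entrez gene 22401, chromosome 3, 32334792 to 32365665), a zinc finger protein that binds RNA, was the least abundant of the 10 in both libraries. It had 240 reads (1.63 TPM) in dsNat10 and 452 reads (2.92 TPM) in dsGFP, 1.86-fold lower (1.59 to 2.19). The reads of Zmat3 were fractional before rounding and its value is uncertain.

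The targets differed in both directions. Of the 7, 5 had a log2 ratio above 0 and 2 below. Mdm2, which p53 also activates, was counted with the inhibitors and had a log2 ratio of -0.69. Of all genes that passed the filter, 50.5% were above 0. Over all 10 genes, 6 were above 0 and 4 below, and the median log2 ratio was 0.21, beside 0.01 over all genes that passed the filter. The 7 targets summed to 587 TPM in dsNat10 and 453 TPM in dsGFP. Per 100 TPM of Trp53 these sums came to 480 TPM in dsNat10 and 258 TPM in dsGFP, 1.86 times as high, to which the lower Trp53 in dsNat10 contributes. With a limit of 1.5-fold in place of 2-fold, added after seeing the data, Mdm4 and Phlda3 were again the genes called higher, and Mdm2, Sesn2 and Zmat3 were called lower. By that limit 25.1% of all genes were higher and 23.8% lower.

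**Figure D3:**
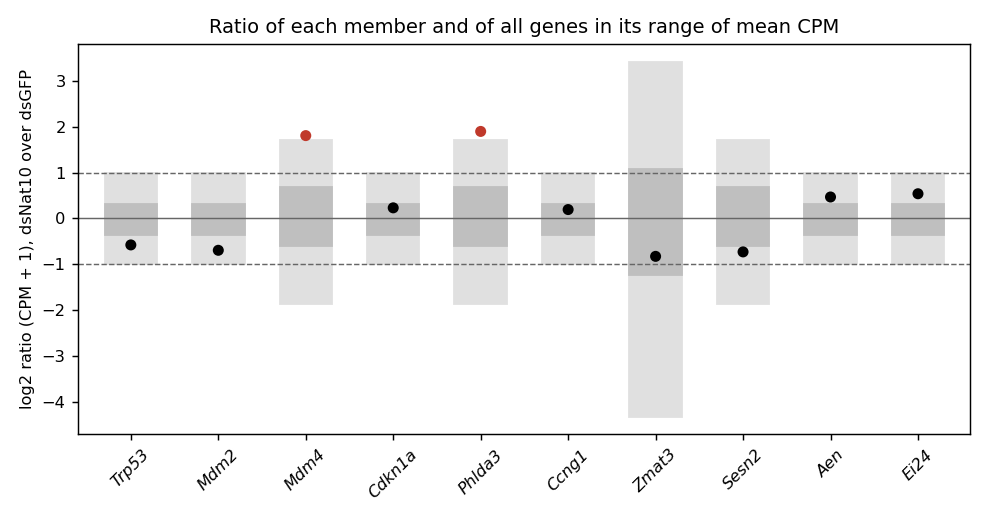
Log2 ratio of CPM plus 1, dsNat10 over dsGFP, for each gene (points; red where called higher), over the middle 50% (dark grey) and the middle 90% (light grey) of genes in the same range of mean CPM (5 to 20, 20 to 50, or 50 or more). Dashed lines mark the limit of 1 in size; only Mdm4 and Phlda3 pass it.

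The order of the levels, per length, was the same in both libraries except that Phlda3 stood above Mdm2 and Sesn2 in dsNat10 and below them in dsGFP. In dsNat10 the order of TPM from the top was Cdkn1a, Trp53, Aen, Ccng1, Ei24, Phlda3, Mdm2, Sesn2, Mdm4 and Zmat3. In dsGFP it was Cdkn1a, Trp53, Aen, Ccng1, Ei24, Mdm2, Sesn2, Phlda3, Mdm4 and Zmat3. No spread over samples exists, and by counting error alone the neighbours Aen (57.1 to 60.2 TPM) and Ccng1 (55.1 to 58.7 TPM) overlapped in dsGFP, as did Ei24 (36.8 to 40.7 TPM) and Mdm2 (35.3 to 38.4 TPM). In dsNat10 no neighbours overlapped by counting error.

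**Figure D4:**
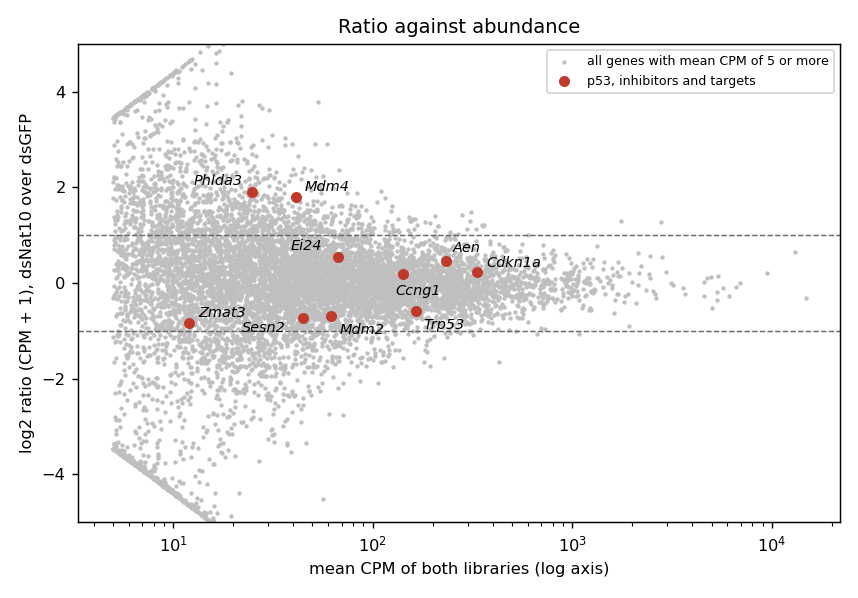
Log2 ratio of CPM plus 1, dsNat10 over dsGFP, against the mean CPM of both libraries (log axis) for the 8738 genes that passed the filter (grey, 49 of them beyond the axis limit of 5) and the 10 genes (red). Ratios spread widely among genes of low mean, where Phlda3, Mdm4 and Zmat3 lie, and narrowly at the level of Trp53, Aen and Cdkn1a.

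Other targets of p53 included genes higher and genes lower. Of 42 listed, 41 were in the table and 32 passed the filter. By the size rule 7 of these were higher (21.9%, beside 15.2% of all genes) and 3 lower (9.38%, beside 15.3%), and the median log2 ratio was 0.31. With plain ratios over the 40 genes with a ratio or a bound, the median was 0.28. Of the 32 that passed, 17 had a mean of 50 CPM or more, where 4.71% of all genes were higher and 4.62% lower. Among the genes called, only Btg2 had such a mean, and only Fdxr one of 20 to 50 CPM. The others had a mean of 5 to 20 CPM, where 26.9% of all genes were higher and 27.8% lower. Of the 9 that did not pass, Gadd45a, Bbc3, Gls2 and Dram1 had no read in dsNat10 and 57, 36, 152 and 189 reads in dsGFP. Fas and Pcbp4 had none in dsGFP and 261 and 1 in dsNat10. These genes were named after their values were seen. Zeros were common, since 2657 genes of the table had no read in dsNat10, and 458 had none in dsGFP. A fold for a gene at 0 in a library is a bound against a floor of 3 reads in that library.

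For growth arrest, 7 of 10 genes in the table passed, with 1 higher (14.3%, beside 15.2% of all genes) and 0 lower (beside 15.3%). Of the 7, 6 had a mean of 50 CPM or more, where 4.71% of all genes were higher and 4.62% lower. Btg2, an antiproliferative protein, had 7963 reads in dsNat10 and 3793 in dsGFP, 2.12-fold higher (2.04 to 2.21). The most abundant of the group, Sfn (14-3-3 sigma, which holds cells before mitosis), had 1849.55 TPM in dsNat10 and 2366.22 TPM in dsGFP, 1.33-fold lower (1.32 to 1.35).

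For cell death, 13 of 15 genes passed, with 3 higher (23.1%, beside 15.2% of all genes) and 1 lower (7.69%, beside 15.3%). Of the 13, 8 had a mean of 50 CPM or more, where fewer genes were called. Among the genes called, Fdxr had a mean of 20.2 CPM. The others had a mean of 5 to 20 CPM, where 26.9% of all genes were higher and 27.8% lower. Pidd1, a death-domain protein, had 625 reads in dsNat10 and 204 in dsGFP, 3.10-fold higher (2.64 to 3.64). Fdxr, a mitochondrial reductase, was 2.51-fold higher (2.21 to 2.86), and Trp53i11 2.14-fold higher (1.86 to 2.47). Apaf1, the core of the apoptosome, had 27 reads in dsNat10 and 399 in dsGFP, 14.6-fold lower (9.90 to 22.5). The most abundant of the group, Bax, which opens the mitochondrial outer membrane, had 583 TPM in dsNat10 and 434 TPM in dsGFP, 1.29-fold higher (1.25 to 1.34).

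For DNA repair and metabolism, 12 of 16 genes passed, with 3 higher (25%, beside 15.2% of all genes) and 2 lower (16.7%, beside 15.3%). Of the 12, 3 had a mean of 50 CPM or more, where fewer genes were called. All of the called genes had a mean of 5 to 20 CPM, where 26.9% of all genes were higher and 27.8% lower. Ak1, an adenylate kinase, had 471 reads in dsNat10 and 62 in dsGFP, 7.68-fold higher (5.88 to 10.2). Lif, a cytokine, had 296 reads in dsNat10 and 0 in dsGFP, at least 99.7-fold higher. Ercc5, a repair nuclease named after its value was seen, completes the higher genes at 3.11-fold (2.52 to 3.86). Polk and Xpc, of translesion synthesis and damage recognition, had 0 reads in dsNat10 and 546 and 537 in dsGFP, at least 180-fold and 177-fold lower. The most abundant of the group, Gpx1, a glutathione peroxidase, was 1.26-fold higher (1.22 to 1.29).

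Few genes upstream of p53 were called, in shares below or near those of all genes. Of 21 ribosomal and nucleolar proteins in the table that bind Mdm2 or assemble the 5S particle, 0 were higher and 0 lower by the size rule, 6 had a log2 ratio above 0 and 15 below, and the median was -0.11. Of these, 20 had a mean of 50 CPM or more, where 4.71% of all genes were higher and 4.62% lower, so the count of 0 is near the background. At that mean 48.0% of all genes had a log2 ratio above 0. Rpl5 and Rpl11, which hold Mdm2 in nucleolar stress, were 1.21-fold (1.19 to 1.23) and 1.62-fold (1.57 to 1.68) lower, both named after their values were seen and the first with fractional reads. The most abundant, Rps14, had 3639.7 TPM in dsNat10 and 3690.94 TPM in dsGFP. Cdkn2a, the source of the Mdm2 inhibitor Arf, was not in the table and was not analysed here.

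Of 9 ubiquitin ligases and deubiquitinases of p53 and Mdm2, 1 was higher (11.1%, beside 15.2% of all genes) and 0 lower (beside 15.3%), with a median log2 ratio of 0.13. Of the 9, 6 had a mean of 50 CPM or more, where 4.71% of all genes were higher and 4.62% lower. Cop1, a ubiquitin ligase of p53, had 1272 reads in dsNat10 and 524 in dsGFP, 2.45-fold higher (2.21 to 2.72). The most abundant, Otub1, had 378 TPM in dsNat10 and 331 TPM in dsGFP. Of 18 kinases, acetyltransferases and cofactors in the table, 15 passed, with 2 higher (13.3%), 1 lower (6.67%) and a median log2 ratio of 0.08. With plain ratios over all 18 and genes at 0 at their bound, that median was -0.07, on the other side of 0. Of the 15 that passed, 5 had a mean of 50 CPM or more. Ppp1r13l, an inhibitor of p53 known as iASPP, had 396 reads in dsNat10 and 0 in dsGFP, at least 133-fold higher. Sirt1, which deacetylates p53, was 2.72-fold higher (2.37 to 3.13), and Pml, the organiser of nuclear bodies, 3.04-fold lower (2.46 to 3.77). The most abundant, Hdac1, had 237 TPM in dsNat10 and 444 TPM in dsGFP, 1.95-fold lower (1.90 to 2.002).

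**Figure D5:**
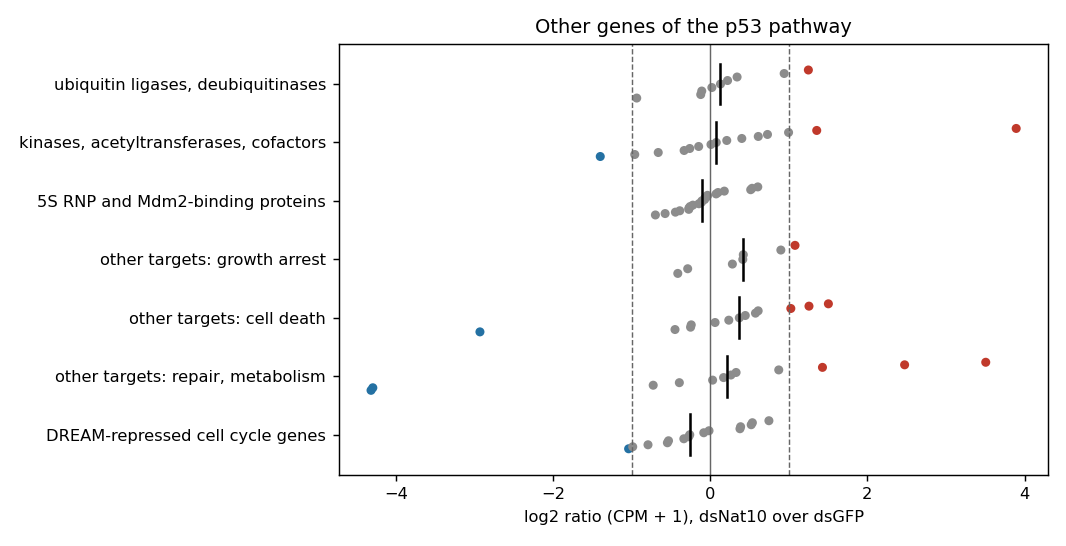
Log2 ratio of CPM plus 1, dsNat10 over dsGFP, of each gene that passed the filter in 7 lists of the p53 pathway (points; red called higher, blue called lower, grey within the limit), with the median of each list as a black bar. Points beyond 3 in size are genes at 0 reads in a library, whose place depends on the added 1 CPM; the list of ribosomal and nucleolar proteins lies wholly within the limit.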

How the data were processed

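Polyadenylated RNA was made into libraries by SMART-seq2, per the labels' protocols, which amplifies full-length cDNA by PCR. Trim Galore, HISAT on GRCm38 and HTSeq were used for trimming, mapping and counting, per the submitters' processing notes. Their versions, and the program behind the fractional values, are not given in the sources used. The deposited table gives estimated counts, which are not normalized (fractional for 23.2% of genes), with FPKM and TPM values that the authors computed.

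Estimated counts were rounded, scaled by TMM in edgeR 4.0.16 and expressed as CPM. Log2 ratios add 1 CPM, which understates low genes, and folds with intervals are plain CPM ratios. Exact (Clopper-Pearson) 95% intervals and the floor of 3 counts cover the counting error of reads only. Reads copied by PCR are not independent molecules, so the intervals can be too narrow even for that error. No test is possible with 1 library per group. The size rule was checked on simulated counts that held counting error only. That check does not cover spread between pools of embryos or from PCR.

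The 10 genes, the lists and the limits were chosen with earlier results of these data known. All 10 genes are named. Of each other list, up to 4 called genes with the largest log2 ratio and the most abundant gene are named. Others are marked as named after their values were seen. Coordinates are those of RefSeq on GRCm38.p6, and overlapping genes those of GENCODE M21. Alternatives were plain totals, DESeq2 1.42.0 size factors, TPM, FPKM, other pseudocounts and filters, leaving out genes with fractional counts, and a 1.5-fold limit.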

Additional observations from a re-analysis of the deposited data

How the results depend on the processing

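The direction of each of the 10 log2 ratios was the same under plain totals, DESeq2 size factors, TPM, FPKM and pseudocounts of 0.5 and 5, and Mdm4 (1.55 to 1.83) and Phlda3 (1.58 to 1.96) were called higher under each. Of 60 such ratios recomputed, 7 moved by more than the counting interval, by at most 0.31. The count called higher was 2 under all 10 alternatives, and the count called lower was 0 under all but the 1.5-fold limit, where it was 3. The median log2 ratio of the 10 genes, 0.21, was 0.27 in TPM and 0.35 without the genes with fractional counts, Mdm2 and Zmat3. No paired analysis was possible because each group has 1 library. No replicate could be left out for the same reason. Depth limits Zmat3 most, with 240 reads in dsNat10 and 452 in dsGFP, and no value says how far 2 pools of untreated morulae would differ.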

Other observations

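Cell cycle genes that p53 is known to repress through p21 and the DREAM complex were compared as well. Of 15 in the table, 0 were higher and 1 lower by the size rule, with 5 log2 ratios above 0, 10 below and a median of -0.26. Of these, 12 had a mean of 50 CPM or more, where 4.62% of all genes were lower, so 1 of 15 (6.67%) is near the background. At that mean 48.0% of all genes had a log2 ratio above 0. Plk1, a kinase of mitosis, had 4558 reads in dsNat10 and 9488 in dsGFP, 2.06-fold lower (1.99 to 2.13). Cdc20, the most abundant and an activator of the anaphase-promoting complex, had 34607 reads in dsNat10 and 35337 in dsGFP. Cenpa and Aurka, named after their values were seen, were 1.99-fold (1.91 to 2.07) and 1.73-fold (1.68 to 1.78) lower, the second with fractional counts. In the other direction, Mki67 and Bub1b, also named after their values were seen, were 1.73-fold (1.53 to 1.95) and 1.45-fold (1.39 to 1.52) higher.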
